A study of Mus musculus with 24 samples.

Results

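The genes described here are 6 collagen chains and 3 genes of the same mesenchymal setting, taken by gene symbol. The chains are Col1a2, Col3a1, Col5a1, Col5a2, Col6a1 and Col6a2. The companions are Loxl1, Pdgfrb and Prrx1. These 9 genes, carried by 14 array features, are 9 of the 8315 named genes on the array and 9 of the 5660 named genes that could be tested. They were followed in HBC-3 cells, a mouse hepatoblast line able to take on hepatocyte or bile duct features, cultured on Matrigel, which is a basement membrane extract. There were 8 groups of 3 arrays, lettered A, B and C: undifferentiated cells at day 0, and cells after 1, 2, 3, 4, 5, 6 or 7 days on Matrigel. Per the labels' protocols, all cells had been freed of a fibroblast feeder layer with trypsin and replated, all RNA had been amplified, and every array carried the same Cy3 reference made from undifferentiated HBC-3 cells. The labels name 1 cell line and no genetic change or added agent other than Matrigel, and do not tell whether A, B and C of 1 day are separate cultures. P-values therefore measure only how far these arrays spread, a spread that can be technical.

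Collagens are triple helices of 3 chains. Types I, III and V build the banded fibrils of connective tissue. Type I supplies the bulk of the fibril, type III is a homotrimer of Col3a1 chains found in extensible tissue, and type V sits inside the fibril and controls how fibrils start and how thick they become. Type VI is not fibrillar: its chains, among them the products of Col6a1 and Col6a2, assemble into beaded filaments around cells and close to basement membranes. Loxl1 belongs to the lysyl oxidases, which make the crosslinks of elastin and collagen. Pdgfrb is the PDGF receptor carried by fibroblasts, pericytes and hepatic stellate cells, and Prrx1 is a homeobox factor of mesenchymal cells. In liver these genes are known chiefly from stellate cells and portal fibroblasts, not from hepatocytes.

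Promoters were taken from RefSeq, build GRCm38.p6, as the 250 bases before and the first 10 bases of the annotated start, and 6 of the 9 members had an entry that was used, with 7 windows. They are shown because the chains of one trimer, and the neighbours Col3a1 and Col5a2, which lie side by side on chromosome 1 with 0 annotated genes between them, are compared in the results. Col6a2 and Col6a1 are neighbours on chromosome 10 with 0 protein-coding genes between them. In all, 4 short motifs were searched on both strands, each also as its reverse complement: the CCAAT box with those letters, the TATA box as TATAAA, the GC box as GGGCGG, and the AP-1 motif as TGACTCA. Capitals mark the matches. The type VI chains come first, then types V, III and I:
Col6a1, chr10:76726035-76726294, minus strand: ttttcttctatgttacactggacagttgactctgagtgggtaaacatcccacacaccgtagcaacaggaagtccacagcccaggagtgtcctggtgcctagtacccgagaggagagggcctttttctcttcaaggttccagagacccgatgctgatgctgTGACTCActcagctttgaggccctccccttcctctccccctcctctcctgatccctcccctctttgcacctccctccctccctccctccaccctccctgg
Col6a2, chr10:76623395-76623654, minus strand: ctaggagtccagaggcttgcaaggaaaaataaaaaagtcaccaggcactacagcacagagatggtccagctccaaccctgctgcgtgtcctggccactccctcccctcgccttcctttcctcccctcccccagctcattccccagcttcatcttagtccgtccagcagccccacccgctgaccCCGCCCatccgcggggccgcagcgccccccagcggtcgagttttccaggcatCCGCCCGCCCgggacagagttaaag
Col5a1, chr2:27886175-27886434, plus strand: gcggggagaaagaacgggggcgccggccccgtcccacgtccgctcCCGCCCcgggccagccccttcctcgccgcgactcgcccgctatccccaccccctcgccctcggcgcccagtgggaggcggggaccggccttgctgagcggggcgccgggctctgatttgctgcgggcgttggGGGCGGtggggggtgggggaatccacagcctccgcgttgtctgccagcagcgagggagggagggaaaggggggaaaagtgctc
Col3a1, chr1:45311288-45311547, plus strand: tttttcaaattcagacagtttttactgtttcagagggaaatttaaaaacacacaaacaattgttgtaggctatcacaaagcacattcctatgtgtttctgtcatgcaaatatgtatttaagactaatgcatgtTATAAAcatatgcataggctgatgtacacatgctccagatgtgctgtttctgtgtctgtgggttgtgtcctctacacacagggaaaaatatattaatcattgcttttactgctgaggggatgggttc
Col1a2, chr6:4505368-4505627, plus strand: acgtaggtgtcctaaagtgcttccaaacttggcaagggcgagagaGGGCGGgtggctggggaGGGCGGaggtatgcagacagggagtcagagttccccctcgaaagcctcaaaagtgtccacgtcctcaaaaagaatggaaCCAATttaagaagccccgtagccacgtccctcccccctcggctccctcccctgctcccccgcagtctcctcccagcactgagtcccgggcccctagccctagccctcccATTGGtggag
No promoter entry was found for Col5a2 or Loxl1, and none was used for Pdgfrb.

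The windows differed in composition and in motifs. GC content was 36.2% for Col3a1, 47.7% for Prrx1, 56.9% for Col6a1, 61.5% for Col1a2, 63.1% for the Col6a2 window shown and 75.0% for Col5a1, against a median of 52.3% over 32851 promoter windows of the same length. Col6a1 held TGACTCA 90 bases before the start, a motif found in 4.6% of all windows. Its partner Col6a2 held 3 GC boxes 67, 15 and 11 bases before the start, the last 2 overlapping each other, and a second annotated start of Col6a2 had 1 GC box 175 bases before it. GC boxes were in 33.4% of all windows. They also occurred 205 and 73 bases before the start of Col5a1 and 205 and 188 bases before that of Col1a2. Col1a2 had CCAAT 109 bases before the start and ATTGG at the start itself, and 34.6% of all windows held one or the other. Col3a1 had TATAAA 117 bases before the start, as did 12.7% of windows in either orientation. The Prrx1 window held no match to these 4 letter strings. These are matches of letters and not measured binding sites.

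Values are the deposited log ratios, read as log2 of sample (Cy5) over reference (Cy3), a likely reading, since base and numerator are not given in the sources used for it. A value is therefore a ratio to the undifferentiated reference, not a level, and says nothing of how 1 gene compares with another in abundance. Arrays held 12328 to 22149 values. On the day 0 arrays both channels held undifferentiated cells, yet across features array C correlated with array A at -0.343 and with array B at 0.084, while A and B correlated at 0.755. The dyes are stated in the labels, so the direction was kept, and counts with the signs of the day 0 arrays turned are given as well. From day 4 on, pairs of C arrays correlated at 0.808 to 0.967, and a C array with array A or B of its day at 0.468 to 0.624. Among the members, day 0 array C exceeded the mean of A and B by 1.00 for Pdgfrb, 0.98 for Col3a1, 0.92 for Col6a1, 0.91 for Col5a1, 0.90 for Col1a2, 0.62 for Col5a2, 0.39 for Col6a2 and 0.06 for Prrx1, and lay 0.14 below it for Loxl1. The differences of the collagen chains and Pdgfrb at day 0 thus rest on a control group that is itself spread.

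On Matrigel, most of these genes stood above their day 0 ratio within the first 3 days. Of 63 changes (9 genes on 7 days), 57 were above 0, and 28 of them passed limma's moderated test with Benjamini-Hochberg adjustment over all 10639 units (genes and unnamed features) at 0.05. All 28 were rises. Of the 9 genes, 3 rose at day 1, where 4.99% of all units did. The count was 5 at day 2 (9.05% of units), 6 at day 3 (12.2%), 5 at day 4 (11.3%), 3 at day 5 (11.7%), 4 at day 6 (12.2%) and 2 at day 7 (14.6%). From day 3 to day 7 the count of risen members thus came down while the share of risen units over the table went up. The size of that drop depended on the setting: without the C arrays of days 4 to 7, 7 members rose at day 3 and 4 at day 7. The median change of the 9 genes was 0.97 at day 1, 1.18 at day 3 and 0.76 at day 7 on the log2 scale, against 0.03, 0.04 and -0.01 over all units. In the moderated F-test over the course, 4 members passed (Col5a1, Loxl1, Pdgfrb and Prrx1, with limma's adjusted p = 0.0071, 0.0134, 0.0212 and 0.0341), where 16.5% of units did. All comparisons against day 0 share the same 3 control arrays. With the signs of the day 0 arrays turned, 2 members rose at day 1, 0 at day 2, 3 at day 3, 2 at day 4, 0 at day 5, 3 at day 6 and 0 at day 7. In that setting 1 member, Col5a2, fell at day 6, and 2, Col5a1 and Col5a2, fell at day 7. These are bulk samples, so more cells carrying a transcript and more transcript per cell cannot be told apart. No group was kept off Matrigel after day 0, so Matrigel and time in culture cannot be told apart either.

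**Figure D1:**
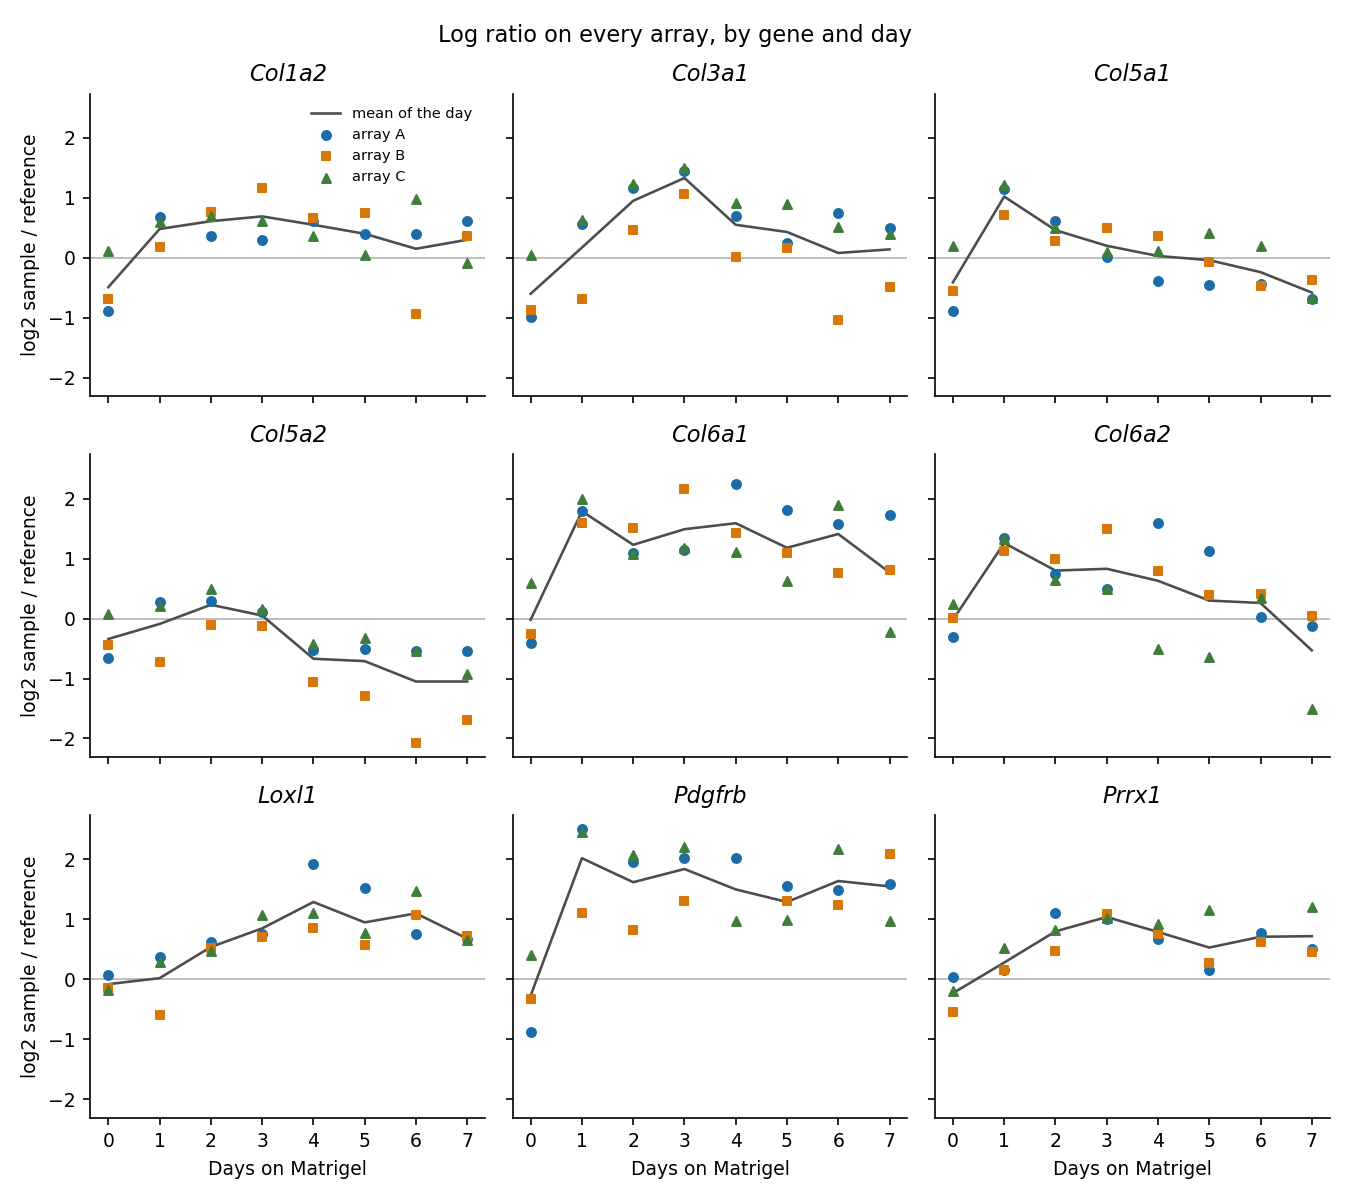
Log2 ratio of sample to reference on every array (vertical axis) against days on Matrigel (horizontal axis), 1 panel a gene, with arrays A, B and C as separate marks and the line through the mean of the day. Col5a1 was highest at day 1, with a mean of 1.02, and lowest at day 7, with -0.58, while Pdgfrb stayed between 0.82 and 2.51 on all arrays of days 1 to 7.

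The type VI chain Col6a1 rose at day 1. Its day 0 arrays stood at -0.40, -0.25 and 0.59 (A, B and C), and its day 1 arrays at 1.79, 1.59 and 1.99. The groups did not overlap, and the day 1 arrays lay close together. The rise was 1.81 ± 0.44 (log2, SE, 3 arrays a day; limma, adjusted p = 0.0123). Later days spread more: the arrays stood at 1.15, 2.16 and 1.17 on day 3, at 2.25, 1.43 and 1.11 on day 4, and at 1.58, 0.76 and 1.90 on day 6. These 3 days lay above all day 0 arrays and also passed, with rises of 1.51, 1.62 and 1.43 (SE 0.44; limma, adjusted p = 0.0172, 0.0126 and 0.0219). Days 2 and 5, with 1.25 and 1.20, did not (limma, adjusted p = 0.0546 and 0.0545). On day 7 the arrays stood at 1.73, 0.81 and -0.22, so A was near its day 1 value and C was below day 0 array C. The day 1 call was lost without day 0 array A (1.62), day 0 array B (1.69) or day 1 array C (1.71). The calls of days 3, 4 and 6 were likewise lost without day 0 array A or B, and each also without 1 of its own arrays: B on day 3, A on day 4, and A or C on day 6.

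Its partner chain Col6a2 was also above day 0 on all arrays of day 1, and did not pass against day 0 on any day in the fit reported. Its day 0 arrays stood at -0.30, 0.01 and 0.24, and day 1 arrays at 1.34, 1.13 and 1.32. The groups did not overlap, and the difference was 1.28 ± 0.47 (log2, SE), which did not pass (limma, adjusted p = 0.0866). It passed in 6 of 18 alternatives, among them the array letter as a replicate block (limma, adjusted p = 0.044; over its alternatives from 0.00359 to 0.277). Day 4 arrays stood at 1.59, 0.80 and -0.51, and day 7 arrays at -0.13, 0.04 and -1.51. The C array was the lowest of both days, and with every C array from day 4 on left out the day 4 change was 1.21 in place of 0.65 and passed (limma, adjusted p = 0.00933; adjusted p over its alternatives from 0.00933 to 0.838).

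Of the type V chains, Col5a1 rose at days 1 and 2 and was lower later. This gene, whose chain is needed to start fibrils, stood at -0.88, -0.55 and 0.19 on day 0 and at 1.14, 0.71 and 1.22 on day 1. All day 1 arrays were above all day 0 arrays, by 1.43 ± 0.29 in the mean (log2, SE; limma, adjusted p = 0.00407). On day 2 they stood at 0.62, 0.28 and 0.49, a rise of 0.88 that also passed (SE 0.29; limma, adjusted p = 0.0406) and was lost when any 1 array of day 2, or day 0 array A or B, was left out. From then on the day means were lower at every step: 0.20 at day 3, 0.03 at day 4, -0.04 at day 5, -0.24 at day 6 and -0.58 at day 7. Arrays of day 1 lay above those of day 2, and each later pair of neighbouring days overlapped. Day 7 arrays, at -0.69, -0.37 and -0.67, were all below every array of days 1 to 3. The day 1 rise held with each single array left out and was lost with the day 0 signs turned (0.61).

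Col5a2, the partner in the common form of type V, did not pass against day 0 on any day in the fit reported. Its day 0 arrays stood at -0.65, -0.44 and 0.07, its day 1 arrays at 0.27, -0.73 and 0.21, and its day 2 arrays at 0.30, -0.11 and 0.49. The mean of day 2, 0.23, was the highest of the course, 0.57 ± 0.39 above day 0 (log2, SE; limma, adjusted p = 0.35). From day 4 all 12 arrays were below 0, and B was the lowest on each day: -1.05, -1.29, -2.08 and -1.70 on days 4 to 7, where A stood between -0.54 and -0.50 and C between -0.92 and -0.33. The change at day 7 was -0.71 ± 0.39 (log2, SE; limma, adjusted p = 0.179). It was called a fall in 3 of 18 alternatives: with the array letter as a block, with the day 0 signs turned (-1.39) and against the reference channel (-1.05). The fall at day 6 was called in the same 3.

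Col3a1, the chain of type III collagen, rose at days 2 and 3. It stood at -0.98, -0.87 and 0.05 on day 0, at 0.56, -0.69 and 0.63 on day 1, at 1.16, 0.46 and 1.23 on day 2, and at 1.45, 1.06 and 1.49 on day 3. Array B was the lowest on each of days 1 to 7. Day 1 overlapped day 0, and days 2 and 3 did not. The rises were 1.55 ± 0.44 at day 2 and 1.93 ± 0.44 at day 3 (log2, SE; limma, adjusted p = 0.0205 and 0.00409). From day 4 on no day passed, with changes between 0.68 and 1.15, and on day 6 the arrays ran from -1.04 to 0.75. The day 3 rise held with each single array left out and was lost with the day 0 signs turned (0.73). The day 2 rise was lost with the signs turned (0.35) and without day 0 array A or B or day 2 array A or C.

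Col1a2, the alpha 2 chain of type I collagen, had its highest mean at day 3 as well, at 0.69 ± 0.44 (SD, n = 3). Day 0 arrays stood at -0.89, -0.68 and 0.11, day 2 arrays at 0.36, 0.77 and 0.69, and day 3 arrays at 0.29, 1.17 and 0.62. No day 2 or day 3 array was below the highest day 0 array. The changes were 1.09 at day 2, 1.18 at day 3 and 1.04 at day 4 (SE 0.37; limma, adjusted p = 0.0478, 0.026 and 0.0498). These calls lay close to the threshold: that of day 3 was lost without day 0 array A or B and without day 3 array B or C, and the change was 0.21 with the day 0 signs turned. Those of days 2 and 4 were each lost when day 0 array A or B, or any 1 array of their own day, was left out. Day 6 ran from -0.94 on B to 0.98 on C, the widest spread of any day for this gene. Its 2 features disagreed, and the B arrays of days 4 to 7 had a value on the one with larger changes alone, feature 3699.

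**Figure D2:**
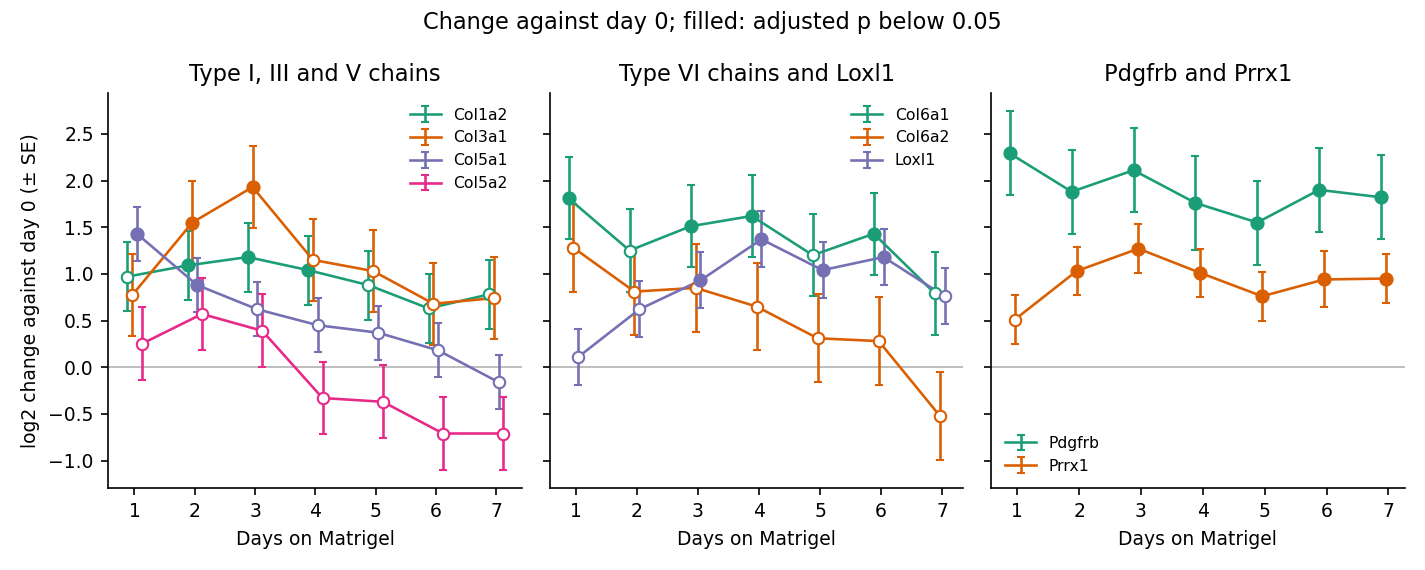
Change against day 0 (log2, vertical axis, ± SE of the fit) on each of days 1 to 7 (horizontal axis) for chains of types I, III and V, for type VI chains with Loxl1, and for Pdgfrb and Prrx1. Filled points passed limma's test at an adjusted p of 0.05; Col5a1 passed on days 1 and 2 only, Loxl1 on days 3 to 6, Pdgfrb on every day from 1 to 7, and Prrx1 on days 2 to 7.

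Loxl1, the crosslinking enzyme, reached its highest day mean at day 4, later than the other 8 genes. It stood at 0.08, -0.15 and -0.17 on day 0 and at 0.38, -0.60 and 0.29 on day 1, which overlapped. Day 4 arrays stood at 1.92, 0.86 and 1.10, and day 6 arrays at 0.75, 1.07 and 1.47. From day 2 on every array was above every day 0 array. Changes of 0.93 at day 3, 1.37 at day 4, 1.04 at day 5 and 1.18 at day 6 passed (SE 0.30; limma, adjusted p = 0.0276, 0.00256, 0.0164 and 0.00669), and 0.76 at day 7 did not (limma, adjusted p = 0.0593). Its day 7 arrays were nonetheless close together, at 0.67, 0.72 and 0.66. The calls of days 4 and 6 held in every alternative run, while that of day 3 was lost in 7 of 18, which took in each array left out, and that of day 5 in 4, among them without day 0 array B or day 5 array A.

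Pdgfrb passed on each of days 1 to 7. Its change was the largest of the 9 genes on each day as reported, and with the day 0 signs turned that of Col6a1 was larger on days 1, 4, 5 and 6 (1.77 against 1.76 at day 1, and 1.57 against 1.23 at day 4). It stood at -0.88, -0.32 and 0.40 on day 0, at 2.51, 1.11 and 2.45 on day 1, at 2.03, 1.30 and 2.20 on day 3, and at 1.59, 2.09 and 0.97 on day 7. All arrays of days 1 to 7 were above the highest day 0 array. The rise was 2.29 ± 0.45 at day 1 (log2, SE; limma, adjusted p = 0.00368), 2.11 at day 3 and 1.82 at day 7 (SE 0.45; limma, adjusted p = 0.00259 and 0.00605). At day 1, 0.376% of units had a larger rise. Day 4 had no value on array B, and its rise of 1.76 ± 0.50 rests on 2 arrays (limma, adjusted p = 0.0166); without day 4 array A it was 1.23 and not called. The calls of days 1 and 3 held in every alternative run; that of day 2 was lost without day 0 array A (1.57), and those of days 4 and 5 without day 0 array A or B. Day 5 was also lost without its own array A. With the day 0 signs turned, days 2, 4, 5 and 7 were lost, and the changes of the 7 days ran from 1.02 to 1.76.

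Prrx1 first passed at day 2. Day 0 arrays stood at 0.04, -0.54 and -0.19, day 1 arrays at 0.16, 0.15 and 0.52, and day 3 arrays at 1.00, 1.09 and 1.03. All day 1 arrays were above all day 0 arrays, and the 0.51 ± 0.26 between them did not pass (log2, SE; limma, adjusted p = 0.252). At day 3 the change was 1.27 ± 0.26 (limma, adjusted p = 0.00225), a call that held in every alternative run. Days 2 and 4 to 7 passed with changes between 0.76 and 1.03. These calls were lost without day 0 array B, those of days 2, 5 and 6 also without 1 or more arrays of their own day, and that of day 5 with any 1 day 0 array left out. With the day 0 signs turned, all 5 were lost, with changes of 0.57 at day 2, 0.56 at day 4, 0.30 at day 5, 0.48 at day 6 and 0.49 at day 7. Day 6 had no value on array C. At day 7 the arrays stood at 0.50, 0.46 and 1.21, and the change was 0.95 ± 0.26 (limma, adjusted p = 0.0124), lost without day 0 array B (0.80) and without day 7 array C (0.71).

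Between the first days and the last, 3 of the chains fell. In the comparison of days 5 to 7 with days 1 to 3, which does not use day 0, Col5a1, Col5a2 and Col6a2 were lower and no member was higher, where 4.23% of all units were called lower. The 9 genes had a median difference of -0.38, against -0.02 over all units. Col5a1 ran from 0.01 to 1.22 with a median of 0.50 on the 9 early arrays and from -0.69 to 0.41 with a median of -0.43 on the 9 late arrays. Its groups overlapped, and the difference was -0.85 ± 0.17 (log2, SE; limma, adjusted p = 0.00594). Col5a2 ran from -0.73 to 0.49 with a median of 0.16 early and from -2.08 to -0.33 with a median of -0.54 late. The overlap came from 1 early array, B of day 1, and the difference was -1.00 ± 0.23 (limma, adjusted p = 0.0131). Col6a2 ran from 0.49 to 1.50 with a median of 1.00 early and from -1.51 to 1.12 with a median of 0.04 late. Its difference was -0.96 ± 0.27 (limma, adjusted p = 0.0383).

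These falls were seen on the arrays of each letter. By letter, late minus early was -1.12 on the A arrays, -0.80 on B and -0.63 on C for Col5a1, -0.75, -1.37 and -0.89 for Col5a2, and -0.52, -0.93 and -1.41 for Col6a2. The order of the letters was not the same for the 3 genes. The calls of both type V chains held in all 27 alternatives. That of Col6a2 was lost in 13, each leaving out 1 array, with differences between -1.01 and -0.79: any array of days 1 to 3, C of day 5, A or C of day 6, or C of day 7. The smallest differences were without day 7 array C (-0.79) and day 5 array C (-0.80). With every C array from day 4 on left out, the differences were -0.98 for Col5a1, -1.17 for Col5a2 and -0.65 for Col6a2, and all 3 were called. Same-letter arrays varied together among the early days and among the late days, and no alternative gave each period its own letter effect. The limma p-values between early and late days can thus be too small.

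The other 6 genes did not pass between early and late days. Col3a1 differed by -0.60 ± 0.26 (log2, SE; limma, adjusted p = 0.14), and it was lower late on each letter. Col6a1 differed by -0.38 ± 0.25, with 0.36 on the A arrays, -0.87 on B and -0.64 on C. Col1a2 differed by -0.31 ± 0.21, Pdgfrb by -0.34 ± 0.26 and Prrx1 by -0.05 ± 0.16. Loxl1 was the one gene with a positive difference, 0.44 ± 0.17 (limma, adjusted p = 0.109), and it was higher late on each letter. A direct comparison of day 7 with day 1, chosen after the data were seen, called Col5a1 (-1.60 ± 0.29; limma, adjusted p = 0.00482) and Col6a2 (-1.80 ± 0.47; limma, adjusted p = 0.0407) lower, where 1.38% of units were lower, and no member higher.

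**Figure D3:**
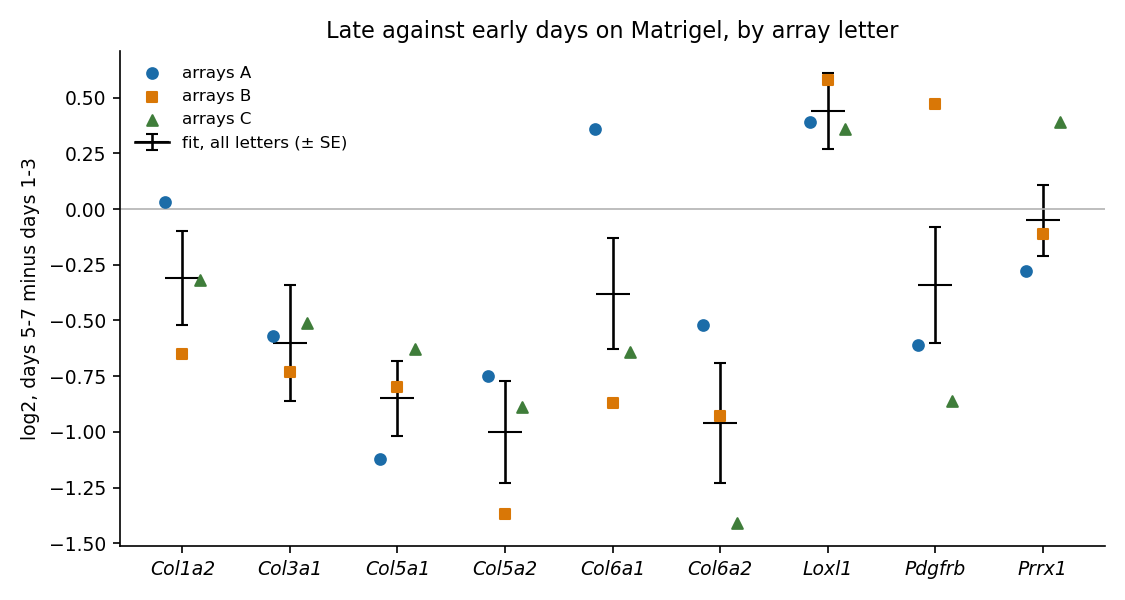
Difference between the mean of days 5 to 7 and that of days 1 to 3 (log2, vertical axis) for each gene (horizontal axis), on the arrays of each letter (marks) and in the fit of all letters (bar, ± SE). Col5a1, Col5a2 and Col6a2 were below 0 on all letters, and Loxl1 was above 0 on all letters.

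Between early and late days the mean gap between the type VI chains widened on the A and C arrays. On each array the log ratio of Col6a2 was taken from that of Col6a1, which compares how far each moved from the reference and not how abundant they were. Over days 1 to 3 the difference was 0.54 ± 0.12 (SD, 9 arrays), within 0.36 to 0.68. Over days 5 to 7 it was 1.11 ± 0.51 (SD, 9 arrays), from 0.35 to 1.86. The late mean was higher by 0.57 in an exact permutation test over arrays (2-sided p = 0.0051, 0.01 after Benjamini-Hochberg adjustment over the 2 pairs of chains compared). The test treats arrays as exchangeable, although same-letter arrays varied together within each of the 2 periods, so this p can be too small. The difference was not seen on every letter: late minus early was 0.88 on A, 0.77 on C and 0.06 on B. The B arrays thus showed next to none of it.

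For type V, Col5a1 minus Col5a2 was 0.50 ± 0.53 (SD, 9 arrays) over days 1 to 3 and 0.65 ± 0.63 (SD, 9 arrays) over days 5 to 7, a difference of 0.15 (exact permutation test, 2-sided p = 0.58). The letters ran both ways, with -0.37 on A, 0.57 on B and 0.26 on C. Day 1 had the widest mean gap, 1.11 ± 0.30 (SD, 3 arrays), where Col5a1 stood high on all arrays and Col5a2 did not. The gap was 0.24 on day 2.

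**Figure D4:**
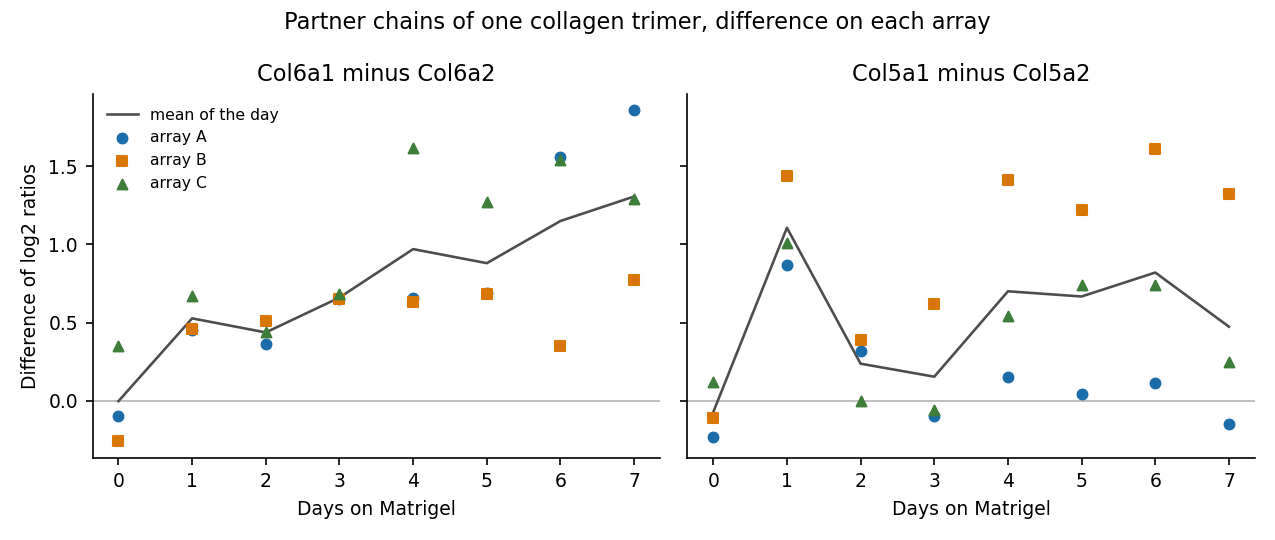
Difference of log2 ratios between the chains of one trimer on each array (vertical axis) against days on Matrigel (horizontal axis), with the line through the mean of the day. Col6a1 minus Col6a2 lay within 0.36 to 0.68 on all arrays of days 1 to 3 and reached 1.86 on day 7 array A, while the B arrays reached 0.77 at most.

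Several genes had more than 1 feature, which allows the array to be set against itself. The fit of features as units of their own took in 13112 units. The 3 features of Col3a1 correlated over 24 arrays at 0.80, 0.90 and 0.95, and all rose at day 3, by 1.80, 1.97 and 2.03 (SE 0.45, 0.46 and 0.47; limma, adjusted p = 0.00781, 0.00449 and 0.00449). They parted later: feature 7638 fell between early and late days by 0.94 (limma, adjusted p = 0.0366), while the other two differed by -0.40 and -0.47 and did not pass. The 2 features of Col5a2 correlated at 0.75 and both fell late, by 0.96 and 1.04 (limma, adjusted p = 0.0246 and 0.0208). For Col5a1, feature 16067 had values on 10 arrays only and correlated with feature 7934 at 0.97. The values of Col5a1 average both where 16067 had a value, and it had none on day 0.

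The features of Col1a2 disagreed. Feature 3699 changed by 1.74 at day 2, 2.03 at day 3 and 1.34 at day 7 (SE 0.49; limma, adjusted p = 0.019, 0.00573 and 0.0456). Feature 918, with values on 20 arrays, changed by 0.45 at day 2, 0.33 at day 3 and 0.09 at day 7 and passed on no day. Their correlation was 0.50 over 20 arrays. The changes given for Col1a2 are means over both features where both had a value; on the B arrays of days 4 to 7 they are feature 3699 alone. The part of cross-hybridisation or of transcript variants in the gap was not tested.

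**Figure D5:**
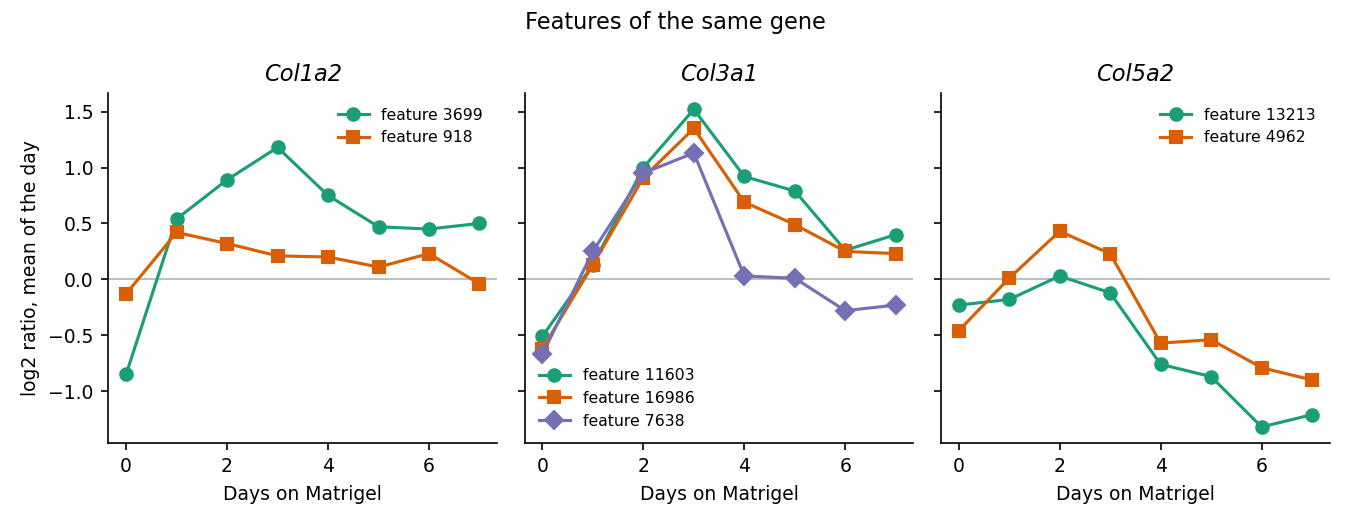
Mean log2 ratio of the day (vertical axis) against days on Matrigel (horizontal axis) for each feature of Col1a2, Col3a1 and Col5a2. The features of Col3a1 and Col5a2 shared their shape, with feature 7638 of Col3a1 lower from day 4 on, whereas feature 918 of Col1a2 stayed between -0.13 and 0.42 and feature 3699 ran from -0.85 to 1.18.

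Across the 24 arrays, the members varied together to different degrees. Array effects, day and the common reference are shared by all genes, so these correlations describe the arrays only. The highest were 0.78 for Col1a2 with Col6a1, 0.74 for Col6a1 with Col6a2, 0.70 for Col6a1 with Pdgfrb, 0.69 for Col3a1 with Prrx1 and 0.68 for the neighbours Col3a1 and Col5a2. The chains of type V correlated at 0.54. The lowest were -0.24 for Col5a1 with Loxl1 and -0.16 for Col5a2 with Loxl1 and for Col6a2 with Prrx1.

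Other collagen chains were thinly measured: of 38 listed, 11 had a feature and 3 were tested. Col27a1, another fibrillar chain, rose by 1.56 ± 0.34 at day 1 (log2, SE; limma, adjusted p = 0.00704), fell by 1.63 between early and late days (SE 0.20; limma, adjusted p = 0.000283) and had its day means at 1.39, 1.42 and 0.68 on days 1, 2 and 3 and -0.79 on day 7. The basement membrane chain Col4a1 and the type V chain Col5a3 did not pass at day 1, with 0.41 ± 0.56 and -0.74 ± 0.51, nor between early and late days. Col5a3 was called lower at day 6 only, with -1.41 ± 0.51 (limma, adjusted p = 0.0499), where 12.6% of units were lower. For Col1a1, the main chain of type I collagen, no feature was assigned to that gene alone, so its change could not be tested.

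Genes that fold, modify and export collagen had 13 of 28 listed members tested. None passed at day 1 (0 of 13), while at day 3 2 rose and 1 fell, and at day 7 1 rose and 2 fell. Over all units, 4.99% rose and 5.92% fell at day 1. Those shares were 12.2% and 12.3% at day 3, and by day 7 they were 14.6% and 13.0%. Crtap, part of the prolyl 3-hydroxylation complex, rose by 1.37 ± 0.28 at day 3 (limma, adjusted p = 0.00176). Tmem38b, an endoplasmic reticulum cation channel, rose by 1.79 ± 0.36 at day 7 (limma, adjusted p = 0.00139). Creb3l1, a transcription factor of the secretory pathway of collagen-making cells, fell by 1.23 ± 0.35 at day 7 and by 1.06 ± 0.20 between early and late days (limma, adjusted p = 0.0155 and 0.0064). The zinc transporter Slc39a13 fell by 0.82 ± 0.26 at day 7 (limma, adjusted p = 0.0235).

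Genes that cleave propeptides, crosslink chains or organise fibrils had 9 of 28 listed members tested, with 0 called at day 1, 4 up and 1 down at day 3, and 2 up and 1 down at day 7. Of all units, 4.99%, 12.2% and 14.6% rose on days 1, 3 and 7, while 5.92%, 12.3% and 13.0% fell. Between early and late days 2 of the 9 genes tested in this list rose and 0 fell, where 3.51% of units rose and 4.23% fell. The small proteoglycan Dcn, which binds the surface of fibrils, rose by 6.06 ± 0.68 at day 7 (limma, adjusted p = 6.51e-06), and the transglutaminase Tgm2 by 1.50 ± 0.35 (limma, adjusted p = 0.00389). Both also rose from early to late days, by 1.91 and 0.76 (limma, adjusted p = 0.00776 and 0.0271). For Dcn the day 0 mean was -2.2 ± 1.47 (SD, 3 arrays) and the day 7 mean 3.86. Part of its change of 6.06 thus rests on the low and widely spread day 0 arrays. Loxl2, of the same enzyme family as Loxl1, fell by 0.79 ± 0.29 at day 7 (limma, adjusted p = 0.0498). Between early and late days Dcn and Tgm2 thus moved opposite to Col5a1, Col5a2 and Col6a2.

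Collagen receptors and genes of the PDGF pathway had 13 of 29 listed members tested, with 4 up and 0 down at day 1, 6 up and 2 down at day 7, and 0 called between early and late days. The shares of all units were 4.99% up and 5.92% down at day 1, and 14.6% up and 13.0% down at day 7. Antxr1 and Antxr2, receptors that bind collagen, rose by 2.27 ± 0.51 and 1.62 ± 0.45 at day 7 (limma, adjusted p = 0.00284 and 0.0124). The ligand Pdgfa fell by 1.05 ± 0.24 and the kinase Src by 1.26 ± 0.37 (limma, adjusted p = 0.00359 and 0.0161). Pdgfc, the other PDGF ligand tested, went the other way and rose by 0.73 ± 0.27 at day 7 (limma, adjusted p = 0.0488). Of mesenchymal transcription factors, 11 of 35 were tested, with 3 up and 0 down at day 1, 1 up at day 7, and 1 up and 1 down between early and late days, where 3.51% of units were up and 4.23% down. Runx1 rose by 1.37 ± 0.29 and Tcf4 by 1.45 ± 0.33 at day 1 (limma, adjusted p = 0.00634 and 0.00764), and Smad3, which carries TGF-beta signals, by 1.06 ± 0.24 at day 7 (limma, adjusted p = 0.0036). Between early and late days Tcf21 rose by 1.05 ± 0.22 and Tcf4 fell by 0.65 ± 0.19 (limma, adjusted p = 0.0098 and 0.0397).

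Markers of other cell types moved too. Of 14 fibroblast markers, the feeder cell type, 4 were tested (Vim, Dcn, Fn1 and Tcf21), and their mean ratio ran from -1.06 to -0.06 on day 0, from -0.27 to 1.00 on days 1 to 3 and from -0.16 to 1.39 on days 5 to 7. The ranges of early and late days overlapped. Dcn and Tcf21 rose from early to late days, as given above, while Vim and Fn1 differed by 0.81 and -0.52 and did not pass (limma, adjusted p = 0.0531 and 0.0733). Of 12 markers of stellate cells, pericytes and smooth muscle, 2 were tested (Mylk and Smtn). Their mean ran from -0.61 to -0.16 on day 0 and from -1.01 to -0.33 on days 1 to 3. On days 5 to 7 it ran from -1.01 to 0.76. Of these 2, 1 was called lower against day 0 on each of days 1 to 5. Over all units, 5.92% fell at day 1, 8.04% at day 2, 12.3% at day 3, 10.9% at day 4 and 11.2% at day 5. At day 7 1 of the 2 markers was higher and 1 lower, where 14.6% of units rose and 13.0% fell. Between early and late days 1 was higher, where 3.51% of units were. The hepatoblast and hepatocyte markers Afp, Apob, H19 and Igf2, 4 of 11, ran from -0.39 to -0.07 on day 0 and from -0.18 to 3.31 on days 5 to 7, and the ductal markers Anxa4 and Bicc1, 2 of 8, from -0.35 to -0.04 and from -0.13 to 2.23. The epithelial markers Cldn3, Tjp1 and Cgn, 3 of 12, ran from -0.29 to 0.60 on day 0, from -1.42 to -0.19 on days 1 to 3 and from -1.37 to 0.07 on days 5 to 7. Of these 3, only Cgn, a tight junction protein, was called at day 1, where 5.92% of all units fell. It fell by 2.65 ± 0.44 (log2, SE; limma, adjusted p = 0.00107). On days 5, 6 and 7, 0 of the 3 were called against day 0. Between early and late days 1 was called higher, where 3.51% of units were. On days 5 to 7 the endothelial marker Cdh5, 1 of 7, ran from -0.76 to 1.02, and the blood and macrophage markers Tyrobp, Hba-a1 and Lyz2, 3 of 8, from 0.22 to 1.10. Ratios to a reference of the same cell line do not show whether a marker was absent. The part of feeder cells or of other cell types in the changes of the collagens was not tested.

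The genes most like the 6 chains were sought by Pearson correlation over the arrays with the mean log ratio of the chains, among 5651 tested genes that are no members. The median correlation was 0.065 and the 99th percentile 0.70. The 5 highest were Arhgef19 (0.903, 23 arrays), Cdk5 (0.837, 24 arrays), a cyclin-dependent kinase, Cd276 (0.817, 24 arrays), an immune checkpoint molecule, Lmcd1 (0.812, 21 arrays), a LIM domain protein, and Itm2a (0.811, 24 arrays), a membrane protein. Arhgef19 had day means of -0.24 at day 0, 1.15 at day 1, 0.78 at day 3 and -0.13 at day 7. Its highest day mean was thus at day 1, as for Col5a1.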

How the data were processed

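The authors deposited 1 table of log ratios, read here as log2 of sample over reference, with 24157 features on 24 arrays and column medians from -0.025 to 0.029. Scanner, background correction, normalization, base and numerator: not given in the sources used here. Scale, centring and direction are thus not known for certain. The array annotation listed 13908 features, 13319 of them with 1 symbol, 589 with several (left unnamed) and 13290 updated through Entrez identifiers. Features of a gene were averaged on each array, arrays were centred on their median, and 10639 units with values on at least 2 of 3 arrays of every day were fitted as 8 day means (limma 3.58.1 under R 4.3.3, functions lmFit and eBayes, Benjamini-Hochberg at 0.05 over all units). The number of arrays limits precision. The fit was tested on simulated data of 10639 units for the day 7 comparison: 25% of log2 changes of 1 and 87% of log2 changes of 2 were called, with 8 false calls. Only 100 units were changed by each size, whereas 2940 units were called at day 7 in the data. The adjustment depends on how many units change, so these percentages need not hold for the data. The simulated noise was independent between arrays. The check therefore does not cover the links between same-letter arrays given below. Members, gene lists and tests were chosen with earlier results of these data known. The genes named are the 9 members, up to 3 called members of each list by size of change at day 7, and the 5 genes most like the chains. Crtap, Pdgfa, Pdgfc, Tcf4, Col4a1, Col5a3 and Cgn were named after their values were seen. Same-letter deviations from the day mean correlated above 0.1 in 9 of 9 pairs of days within days 1 to 3 and 18 of 18 within days 4 to 7. They did so in 21 of 36 pairs between these periods and 4 of 21 with day 0, so letters did not pair the arrays over the whole course.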

Additional observations from a re-analysis of the deposited data

Results flagged for a closer look

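Log ratios on Matrigel differed between early days (1 to 3) and late days (5 to 7) for 3 genes. This was tested as the difference itself, in the same limma fit. Col5a1 was lower late by 0.85 on the log2 scale (-0.85), Col5a2 by 1.00 (-1.00) and Col6a2 by 0.96 (-0.96). All 3 were lower on the A, the B and the C arrays. The causes of these differences were not tested.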

How the results depend on the processing

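Of 31 member calls, 7 held in every alternative: Pdgfrb at days 1 and 3, Prrx1 at day 3, Loxl1 at days 4 and 6, and the late falls of Col5a1 and Col5a2. The cause was not tested where counts moved. As reported, members called were 3, 5, 6, 5, 3, 4 and 2 for days 1 to 7, 3 for late against early, and 4 in the F-test. Arrays scaled to a common spread gave 6 at day 1, 2 at day 6 and 7 in the F-test. Fitting only the compared groups gave 5 at day 1, 8 at day 2, 1 at day 5 and 1 at day 7. Leaving out the C arrays of days 4 to 7 gave 5 at day 1, 4 at day 7 and 8 in the F-test. Requiring values on all 3 arrays, which tests 7 members, gave 3 at day 2, 3 at day 4, 1 at day 5, 2 at day 6, 0 at day 7 and 2 in the F-test. Turning the signs of all day 0 arrays gave 0 at day 2, 3 at day 3, 2 at day 4, 0 at day 5, 2 at day 7 (both falls, of Col5a1 and Col5a2) and 2 in the F-test. The reference channel as baseline gave 5 at day 7, 3 rises and the falls of Col5a1 and Col5a2. With the array letter as a replicate block, 5 were called at day 5, 5 at day 7 and 7 in the F-test. Of those, Col5a2 at day 7 was a fall. Deviations of arrays sharing a letter had correlations of 0.223 to 0.461 among days 1 to 3, 0.142 to 0.926 among days 4 to 7, and -0.568 to 0.478 with day 0. Leaving out 1 array at a time gave 2 to 4 at day 1, 1 to 6 at day 2, 3 to 6 at day 3, 1 to 6 at day 4, 0 to 5 at day 5, 2 to 5 at day 6, 1 to 3 at day 7, 2 to 3 for late against early and 1 to 6 in the F-test. Over all units, 1161 were called at day 1, 330 without day 0 array B and 3219 with scaled arrays; 2940 were called at day 7, 1230 with the day 0 signs turned; 823 were called between early and late days, 403 without day 3 array A and 1543 with the block. With each feature as a unit of its own, an alternative added after the data were seen, the counts of members with a called feature stayed within 1.5 times those reported. Centring and scaling changed the sign of 1 of 144 member values, Col5a1 at day 7.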

Other observations

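Read against the reference channel itself in place of the day 0 arrays, Col5a2 stood at -1.05 ± 0.89 (SD, n = 3) on day 6 and -1.05 ± 0.59 (SD, n = 3) on day 7, with all 6 arrays below 0. This reading includes any dye bias, since dyes were not swapped.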
